A study of Mus musculus with 5 samples.

Results

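The genes described here are 33 mouse genes for RNA polymerase I, its factors, the nucleolar RNA-protein particles that modify ribosomal RNA and the factors that assemble both ribosomal subunits. They were chosen by name and found by symbol in a count table of 39179 genes. All 33 were found and all 33 passed the filter on low counts, as did 13000 genes in all. RNA was sequenced from erythroid cells of C57BL/6 fetal liver at 14.5 days post conception, sorted for TER119, a surface protein of maturing red cell precursors. The 2 KO libraries carried the genotype Csnk2bfl/fl Vav+/Cre and the 3 control libraries Csnk2b+/+ Vav+/Cre. Cre was thus present in both groups, and the stated genotypes differed at Csnk2b. The labels do not say whether the groups shared litters. Cre was driven by the Vav1 promoter, which is active in blood-forming cells generally and not in erythroid cells alone. Csnk2b encodes CK2 beta, the regulatory subunit of a protein kinase with very many substrates. The labels number embryos within each group and do not say whether each library came from 1 embryo or from several. The p-values therefore cover only the spread among these 5 libraries, part of which may be technical.

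Ribosome production starts in the nucleolus, where RNA polymerase I transcribes one long precursor from the ribosomal DNA repeats. Box C/D and box H/ACA particles, built on small nucleolar RNAs (snoRNAs), methylate the precursor and convert uridines in it to pseudouridine, and a large set of assembly factors then folds, cuts and exports the subunits. Early erythroblasts make ribosomes at a high rate and lower it as they mature, and inherited defects of ribosome production cause anaemias such as Diamond-Blackfan and Shwachman-Diamond syndromes. CK2 is known to phosphorylate several of the proteins in this group, among them nucleolin (Ncl), nucleophosmin (Npm1), Nolc1, Ubtf and Rrn3. The data below are RNA levels and hold no measure of phosphorylation or of ribosomal RNA.

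Library totals ranged from 13187094 to 15366021 counts. Csnk2b itself had 112 and 95.6 CPM in KO replicates 1 and 2, against 186, 186 and 169 CPM in control replicates 1, 2 and 3, a difference of -0.80 ± 0.09 on the log2 scale (SE; edgeR adjusted p = 0.0018). Which exons were floxed is not stated, so remaining reads cannot be placed inside or outside them. CPM here are counts scaled to library size with TMM factors. Erythroid markers were abundant in every library, with Hba-a1, an adult alpha globin, at 14470 and 8935 CPM in KO replicates 1 and 2, against 11598, 16267 and 9897 CPM in control replicates 1, 2 and 3. The KO libraries stood further apart from each other than the controls did, with a chi-square of 17.7 per degree of freedom between their counts, against 4.30 to 6.35 for pairs of controls. Every result below is touched by this.

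Of the 33 genes, 1 rose, 0 fell and 32 did not pass the test at an edgeR adjusted p below 0.05. Over all 13000 genes tested, 6.98% were called, 5.15% higher and 1.83% lower, so 1 call among 33 genes is no more than that background. The single gene was Rrp9, which encodes a protein that binds the U3 snoRNA, the small RNA that guides the first cuts of the ribosomal RNA precursor. At an unadjusted edgeR p below 0.05, 6 members were higher, against 14.3% of all genes tested, and 0 were lower, against 9.48%. DESeq2 also called 1 member higher and 0 lower, and limma-voom called 0 in either direction. The edgeR count was 0 without any single control or without KO replicate 2, and 12 without KO replicate 1, when 12.7% of all genes tested were called higher and the spread came from the controls alone. The size of the differences was small throughout: log2 fold changes ran from -0.09 for Polr1c to 0.54 for Rrp9. Their median was 0.11, beside 0.01 over all genes tested and -0.01 over the 6429 genes tested whose control mean lay within the members' range of 19.8 to 1233 CPM. In sorted bulk samples fewer cells of a type and less RNA per cell cannot be told apart. A log2 fold change above 0 was found for 29 of the 33 members, against 52.5% of all genes tested, and the count was 26 to 29 under the other scalings, filters and tools with all 5 libraries. Without KO replicate 2 it was 15, with a median of -0.01.

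**Figure D1:**
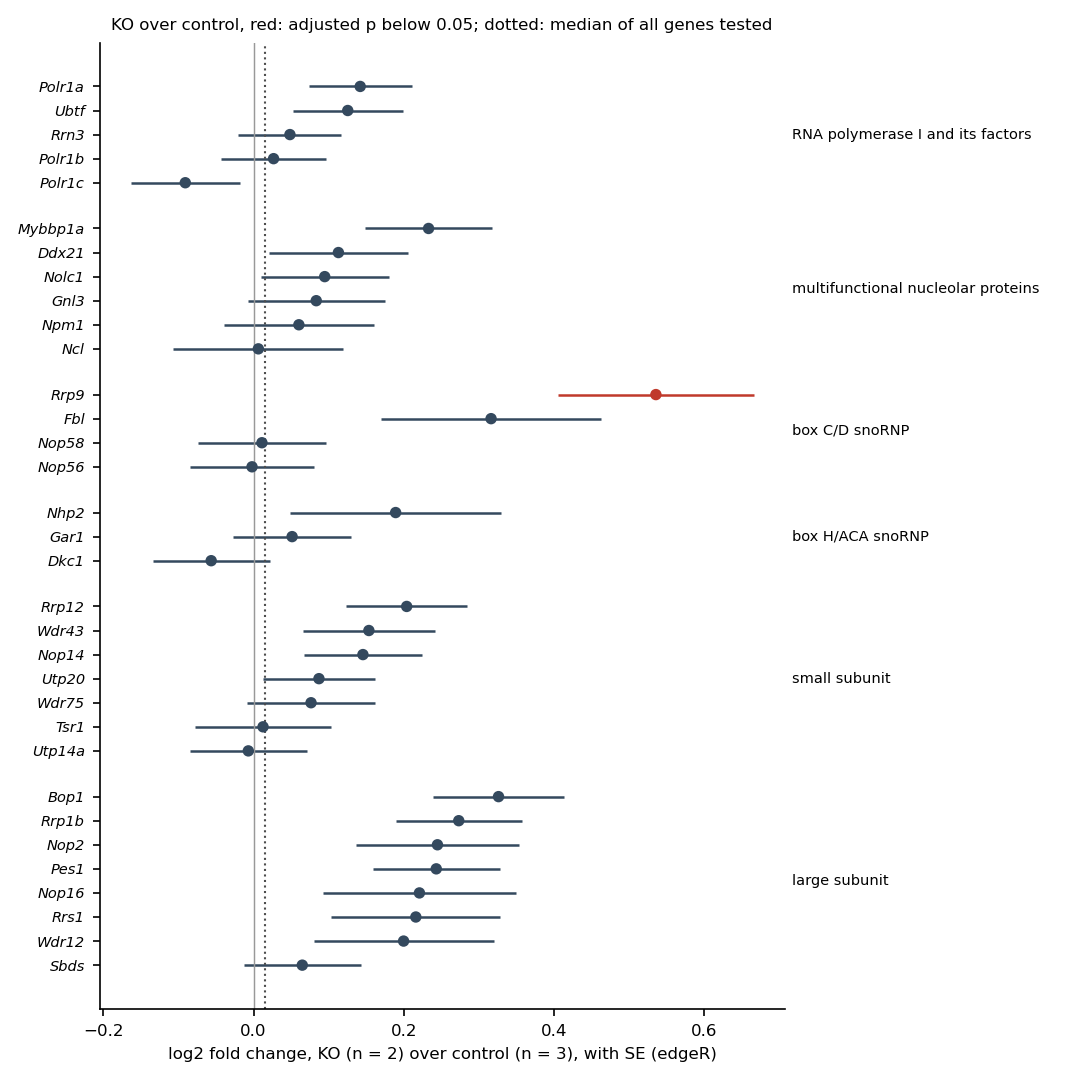
Log2 fold change of KO (n = 2) over control (n = 3) for the 33 genes, grouped by role, with a standard error derived from the edgeR F statistic. Rrp9, in red, is the gene past the threshold; most of the others lie between 0 and 0.35, to the right of the dotted line that marks the median of all genes tested.

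The transcripts were higher in 1 KO library than in the other, with few exceptions. KO replicate 2 was above KO replicate 1 in 31 of 33 members, against 50.6% of all genes tested and 46.1% of those in the members' range of level. The exceptions were Polr1a and Utp20. The median member was 0.19 above the control mean in KO replicate 2 on the log2 scale, and -0.00 from it in KO replicate 1. The medians of the control libraries lay at 0.03, 0.00 and -0.01 for replicates 1, 2 and 3. Summed over the 33 genes, the level was 5881 and 6852 CPM in KO replicates 1 and 2, against 6109, 5919 and 5807 CPM in control replicates 1, 2 and 3. KO replicate 1 thus lay within the range of the controls and KO replicate 2 above it. Among the controls the members had a median coefficient of variation of 4.10%, near the 4.48% of genes in the same range of level. KO replicate 2 exceeded all 3 controls in 29 of 33 members, against 40.6% of all genes tested. KO replicate 1 exceeded all 3 controls in 11, against 31.9%. In both KO libraries at once, 10 members lay above all controls without overlap, against 21.9% of all genes tested. A single member, Polr1c, lay below all controls, against 19.3%. With 2 KO libraries, which of them is typical of the genotype cannot be told.

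**Figure D2:**
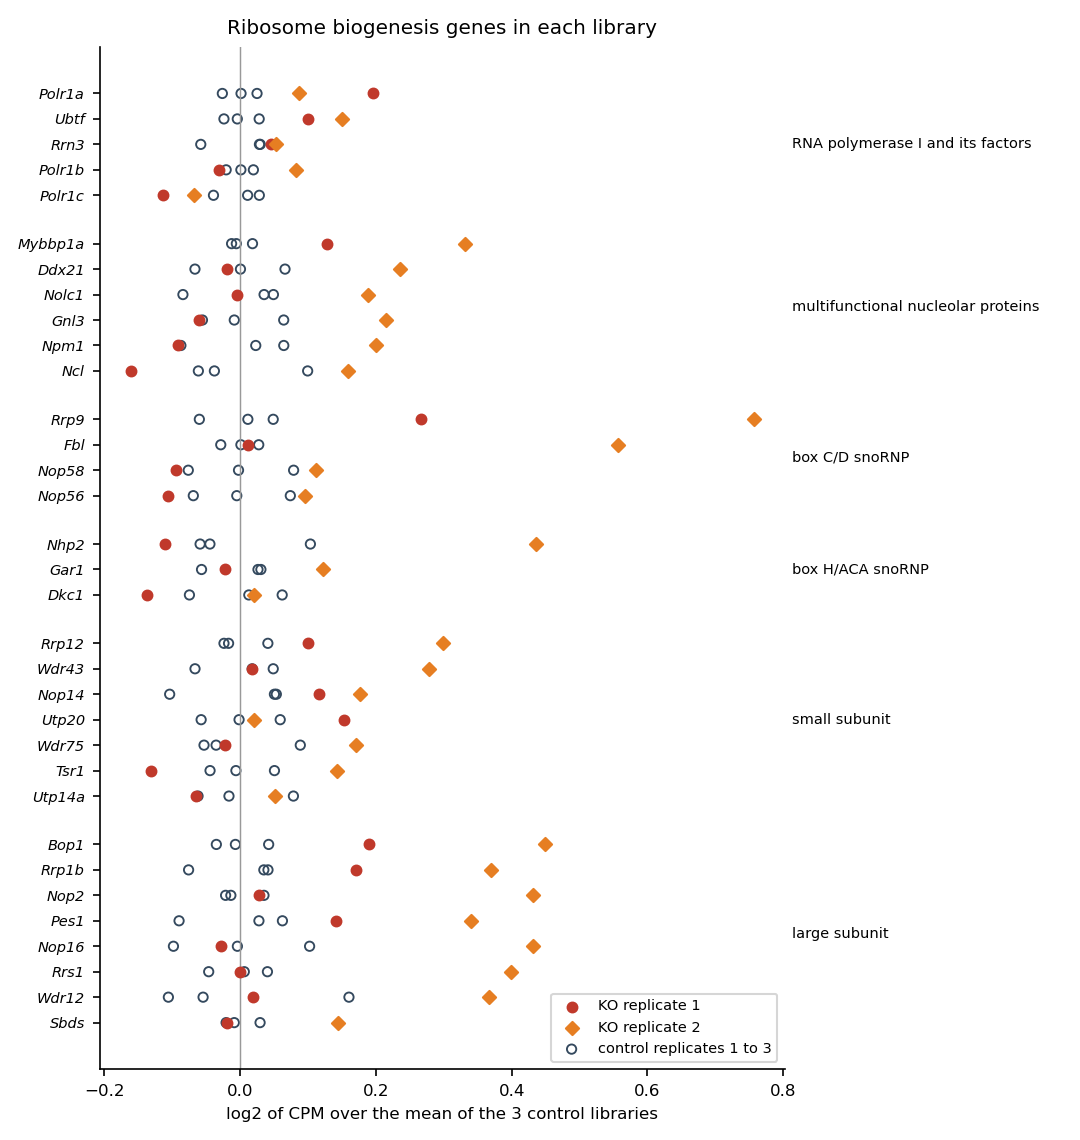
Each point is 1 library, as log2 of its CPM over the mean of the 3 controls, for the 33 genes grouped by role. KO replicate 2 (diamonds) lies to the right of KO replicate 1 (filled circles) in 31 of 33 rows, while the open control points stay close to 0.

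Other measures also differed between the KO libraries. The summed level of 8 erythroid markers was 49561 and 39569 CPM in KO replicates 1 and 2, against 45129 to 54800 CPM in controls. The 5 megakaryocyte markers summed to 111 and 141 CPM in KO replicates 1 and 2, against 98.4 to 106 CPM in controls. The 8 hepatocyte markers summed to 257 and 309 CPM in KO replicates 1 and 2, against 218 to 346 CPM in controls, and the 6 granulocyte and mast cell markers to 677 and 571 CPM in KO replicates 1 and 2, against 491 to 710 CPM in controls. Of these 4 lists edgeR called 0 genes. Erythroid markers lower at an unadjusted edgeR p below 0.05 were 2 of 8, against 9.48% of all genes tested. Of the 5 megakaryocyte markers 2 were higher at that threshold, against 14.3% of all genes tested, and 1 was lower, against 9.48%. DESeq2 called Tfrc, the transferrin receptor, lower and Itga2b, an integrin of megakaryocytes, higher, and limma-voom called 0. Macrophage markers, of which 9 of 10 were tested, summed to 92.6 and 87.9 CPM in KO replicates 1 and 2, against 115 to 128 CPM in controls. By all 3 tools 4 of the 9 fell, Cd5l, Adgre1, Vcam1 and C1qc, against 1.83% of all genes tested called lower by edgeR. At an unadjusted edgeR p below 0.05, 8 of the 9 were lower, against 9.48%. In both KO libraries 8 of the 9 lay below all controls, against 19.3%. Vsig4 had 0 counts in every library, and of 4 lymphoid markers Cd3e and Cd3d had 0. The 5 progenitor markers summed to 331 and 320 CPM in KO replicates 1 and 2, against 300.1 to 351 CPM in controls. None of the 5 passed the test by any of the 3 tools. Of the 5, 1 was higher and 1 lower at an unadjusted edgeR p below 0.05, against 14.3% and 9.48% of all genes tested. The 6 late erythroid markers summed to 24128 and 21041 CPM in KO replicates 1 and 2, against 23414 to 26618 CPM in controls. Most of that sum was Slc4a1, at 17870 and 15773 CPM in KO replicates 1 and 2. Of the 6, 1 had a log2 fold change above 0, against 52.5% of all genes tested. At an unadjusted edgeR p below 0.05, 3 of the 6 were lower, against 9.48%. In both KO libraries 4 of the 6 lay below all controls, against 19.3%. Of the 6 markers 1 passed, against 1.83% called lower among all genes tested. It was Xpo7, a nuclear transport receptor induced late in erythroid maturation, which fell (log2 difference -0.48, edgeR adjusted p = 0.047). That call was lost with RLE scaling, with no filter, with the replicate block and without each control or KO replicate 2. The part of cell makeup or stage in the levels of the ribosome genes was not tested.

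**Figure D3:**
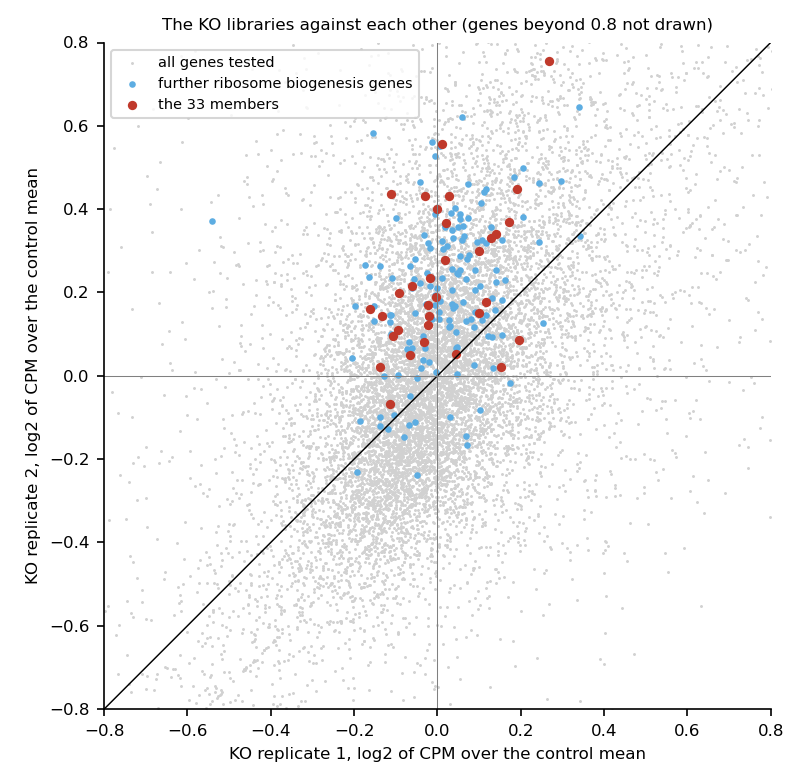
Log2 of CPM over the control mean in KO replicate 1 (horizontal) and KO replicate 2 (vertical) for all genes tested (grey), 146 further ribosome biogenesis genes (blue) and the 33 members (red). Of the red points, 31 lie above the diagonal line of equal level, and they spread about 0 along the horizontal axis.

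RNA polymerase I and its factors had log2 fold changes between -0.09 and 0.14. Polr1a encodes the largest subunit of the polymerase, which carries the active site together with the product of Polr1b. Polr1a stood at 175 and 162 CPM in KO replicates 1 and 2, against 150.2, 156 and 153 CPM in control replicates 1, 2 and 3, above all controls in both KO libraries. It differed by 0.14 ± 0.07 on the log2 scale (SE; edgeR adjusted p = 0.25). Ubtf, for the factor that binds along the ribosomal DNA and opens its chromatin, was at 496 and 514 CPM in KO libraries and 455, 472 and 461 CPM in controls, with a log2 fold change of 0.13 ± 0.07. Rrn3, which brings the polymerase to the promoter, differed by 0.05 ± 0.07, and Polr1b by 0.03 ± 0.07. Polr1c, a subunit that RNA polymerases I and III share, was the 1 gene of the list below all controls, at 52.3 and 54.0 CPM in KO replicates 1 and 2 against 57.8, 57.1 and 55.1 CPM in control replicates 1, 2 and 3. Its log2 fold change was -0.09 ± 0.07 (edgeR adjusted p = 0.49). None of the 5 passed the edgeR test, at an unadjusted p below 0.05 or adjusted, and DESeq2 and limma-voom called 0 of them. The ratio of KO replicate 2 to KO replicate 1 ranged from 0.927 for Polr1a to 1.08 for Polr1b.

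Nucleolin, nucleophosmin and the other abundant nucleolar proteins had log2 fold changes of 0.01 to 0.23 (Ncl, the lowest, was at -0.0047 with RLE scaling), with 0 of 6 past the edgeR test, 1 of 6 at an unadjusted p below 0.05, and 0 with DESeq2 or limma-voom. Per kilobase of exon, Npm1 and Ncl were the most abundant of all 33 genes, at 165 and 122 CPM per kilobase in the KO mean and 158 and 121 CPM per kilobase in the control mean. Mybbp1a, Nolc1 and Ddx21 followed, at 107, 82.2 and 78.7 CPM per kilobase in the KO mean and 90.8, 77.0 and 72.8 in the control mean. Ncl, which binds nascent ribosomal RNA, was at 1102 and 1376 CPM in KO replicates 1 and 2, against 1320, 1200.0 and 1180.5 CPM in control replicates 1, 2 and 3. The KO libraries bracketed the controls. Npm1, a chaperone of late ribosome assembly and export, was likewise at 395 and 483 CPM in KO libraries, against 440, 427 and 396 CPM in controls. Nolc1, a scaffold that escorts snoRNPs, was at 304 and 348 CPM in KO libraries and 316, 313 and 288 CPM in controls. Ddx21, an RNA helicase that senses the state of polymerase I, and Gnl3, which encodes the GTPase nucleostemin, had log2 fold changes of 0.11 ± 0.09 and 0.08 ± 0.09. Ddx21 was at 372 and 443 CPM in KO replicates 1 and 2, against 394, 377 and 360 CPM in control replicates 1, 2 and 3.

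Mybbp1a was the member of this group with both KO libraries above all controls. It encodes a nucleolar protein that takes part in ribosomal RNA processing and binds p53 when nucleoli are disturbed. Its level was 575 and 662 CPM in KO replicates 1 and 2, against 522, 525 and 533 CPM in control replicates 1, 2 and 3. The log2 fold change was 0.23 ± 0.08 (SE; edgeR unadjusted p = 0.023, adjusted p = 0.14). The gene (ENSMUSG00000040463) lies on chromosome 11 of GRCm38 from 72441355 to 72451768, plus strand, and its exons overlap those of Spns2 on the other strand by 131 bp.

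Within the box C/D group the members parted. Rrp9 rose, to 45.0 and 63.1 CPM in KO replicates 1 and 2, against 35.8, 38.6 and 37.7 CPM in control replicates 1, 2 and 3. Both KO libraries were above all controls, and KO replicate 2 was 1.40-fold above KO replicate 1. The means were 54.0 ± 12.8 CPM (SD, n = 2) in KO and 37.4 ± 1.42 CPM (SD, n = 3) in control cells, a fold of 1.45. On the log2 scale this was 0.54 ± 0.13 (SE), and the edgeR adjusted p was 0.042. The call was lost without control replicate 1, 2 or 3 or KO replicate 2 (edgeR adjusted p = 0.16, 0.13, 0.11 and 0.14), with limma-voom (0.055) and without a filter on low counts (0.17), and held with the replicate number as a block (0.016). Without KO replicate 2 the log2 fold change was 0.26. Rrp9 (ENSMUSG00000041506) lies on chromosome 9 from 106475963 to 106485424 on the plus strand, and 20 bp of its exons overlap Parp3 on the other strand.

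The other 3 members of this group encode core proteins of the box C/D particle and did not pass. Fbl encodes fibrillarin, the methyltransferase itself. It was at 19.98 and 29.2 CPM in KO replicates 1 and 2, against 19.4, 20.2 and 19.8 CPM in control replicates 1, 2 and 3. KO replicate 1 thus lay among the controls and KO replicate 2 1.46-fold above KO replicate 1. The log2 fold change was 0.32 ± 0.15 (edgeR adjusted p = 0.23). Nop56 and Nop58, which form the body of the particle, had log2 fold changes of -0.00 ± 0.08 and 0.01 ± 0.08. Their KO libraries lay on either side of the controls, at 177 and 203 CPM for Nop56 against 182 to 200.5 CPM in controls, and at 197 and 227 CPM for Nop58 against 199.6 to 222 CPM in controls. Snu13, for a further core protein of the particle, is not one of the 33. It was at 31.7 and 30.8 CPM in KO replicates 1 and 2, against 34.9, 38.0 and 35.6 CPM in control replicates 1, 2 and 3, below all controls in both KO libraries. It differed by -0.21 ± 0.08 on the log2 scale (SE; edgeR unadjusted p = 0.030, adjusted p = 0.16).

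The box H/ACA genes were also split by library. Dkc1, for the pseudouridine synthase dyskerin, which is mutated in dyskeratosis congenita, had 154 and 171 CPM in KO libraries and 176, 170.5 and 160.5 CPM in controls, a log2 fold change of -0.06 ± 0.08. Nhp2 had 73.1 and 107 CPM in KO libraries and 76.6, 84.8 and 75.8 CPM in controls, with a log2 fold change of 0.19 ± 0.14. Its ratio between the KO libraries, 1.46, was the highest of the 33. Gar1 had a log2 fold change of 0.05 ± 0.08. In this group 0 of 3 passed the edgeR test, also at an unadjusted p below 0.05, and with DESeq2 or limma-voom.

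Genes for the small subunit ran from -0.01 for Utp14a to 0.20 for Rrp12 on the log2 scale, with 0 of 7 past the edgeR test, 1 at an unadjusted p below 0.05, and 0 with DESeq2 or limma-voom. Rrp12, whose yeast counterpart takes part in export of pre-ribosomes, was at 87.2 and 100.1 CPM in KO replicates 1 and 2, against 80.0, 80.4 and 83.7 CPM in control replicates 1, 2 and 3. Both KO libraries were above the controls, and the log2 fold change was 0.20 ± 0.08 (SE; edgeR unadjusted p = 0.032, adjusted p = 0.16). Rrp12 lies on chromosome 19 from 41862851 to 41896173, minus strand. Nop14, a member of the small subunit processome, the assembly that forms on the nascent transcript, also lay above all controls in both KO libraries, at 77.7 and 81.1 CPM in KO libraries, against 66.7 to 74.4 CPM in controls. Utp20, of the same processome, was with Polr1a the exception in having its lower value in KO replicate 2, at 135 and 123 CPM in KO replicates 1 and 2 against 117 to 126 CPM in controls. Wdr43 and Wdr75, which couple transcription of the precursor to its processing, differed by 0.15 ± 0.09 and 0.08 ± 0.09, and Tsr1, a GTPase-like factor of late small subunit assembly, by 0.01 ± 0.09.

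The 8 genes for the large subunit had the highest median among the roles, 0.23 on the log2 scale, and all 8 had a log2 fold change above 0. By edgeR 0 of 8 passed, 3 were higher at an unadjusted p below 0.05, against 14.3% of all genes tested, and DESeq2 and limma-voom called 0. The 3 were Bop1, Rrp1b and Pes1. The same 3 of the 8 had both KO libraries above all controls, against 21.9% of all genes tested. Both counts rest on the same values. In all 8 genes KO replicate 2 exceeded KO replicate 1, against 50.6% of all genes tested, and all 3 controls, against 40.6%. Nop16, which takes part in assembly of the large subunit, was at 57.5 and 79.1 CPM in KO replicates 1 and 2, against 58.5, 63.0 and 54.8 CPM in control replicates 1, 2 and 3. Rrs1, which helps bring the 5S RNA particle into the large subunit, was at 49.0 and 64.7 CPM in KO libraries, against 47.5, 49.2 and 50.4 CPM in controls. In both genes KO replicate 1 lay within the range of the controls. Without KO replicate 2, Nop16 and Rrs1 had log2 fold changes of -0.03 and -0.00 and Sbds one of -0.02.

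Pes1, Bop1 and Wdr12 encode the PeBoW complex, which is needed to process the precursor of the large subunit RNAs. Bop1 was at 98.8 and 118 CPM in KO replicates 1 and 2, against 84.5, 89.2 and 86.2 CPM in control replicates 1, 2 and 3, with no overlap between groups. Its log2 fold change was 0.33 ± 0.09 (SE; edgeR unadjusted p = 0.0047, adjusted p = 0.058). Pes1 was at 119 and 137 CPM in KO libraries, against 102, 110.3 and 113 CPM in controls, and its log2 fold change was 0.24 ± 0.08 (SE; edgeR unadjusted p = 0.018, adjusted p = 0.12). Wdr12 was at 47.5 and 60.4 CPM in KO libraries, against 52.4, 45.1 and 43.6 CPM in controls, so KO replicate 1 lay within the range of the controls, and its log2 fold change was 0.20 ± 0.12 (edgeR adjusted p = 0.35). Bop1 (ENSMUSG00000022557) lies on chromosome 15 from 76452989 to 76477277, minus strand, and Pes1 (ENSMUSG00000020430) on chromosome 11 from 3963975 to 3980004, plus strand.

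Rrp1b encodes a nucleolar protein of early large subunit assembly that is also known as a transcriptional partner of E2F1. It was at 81.3 and 93.3 CPM in KO replicates 1 and 2, against 74.3, 68.5 and 74.0 CPM in control replicates 1, 2 and 3. The log2 fold change was 0.27 ± 0.08 (SE; edgeR unadjusted p = 0.010, adjusted p = 0.088). Rrp1b lies on chromosome 17 from 32036100 to 32062865, plus strand, 3.05 Mb from Csnk2b, and was the member nearest to the targeted gene. Nop2, for the enzyme that methylates a cytosine of the large subunit RNA, was at 144 and 191 CPM in KO replicates 1 and 2, against 140, 145 and 139 CPM in control replicates 1, 2 and 3. Its KO replicate 1 lay within the range of the controls, and the log2 fold change was 0.24 ± 0.11 (SE; edgeR unadjusted p = 0.0505, adjusted p = 0.21). Nop2 lies on chromosome 6 from 125131909 to 125144753, plus strand. Sbds, whose human counterpart is mutated in Shwachman-Diamond syndrome and which releases an assembly factor from the large subunit, was at 69.0 and 77.3 CPM in KO libraries, against 71.4, 69.0 and 69.6 CPM in controls, a log2 fold change of 0.06 ± 0.08.

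**Figure D4:**
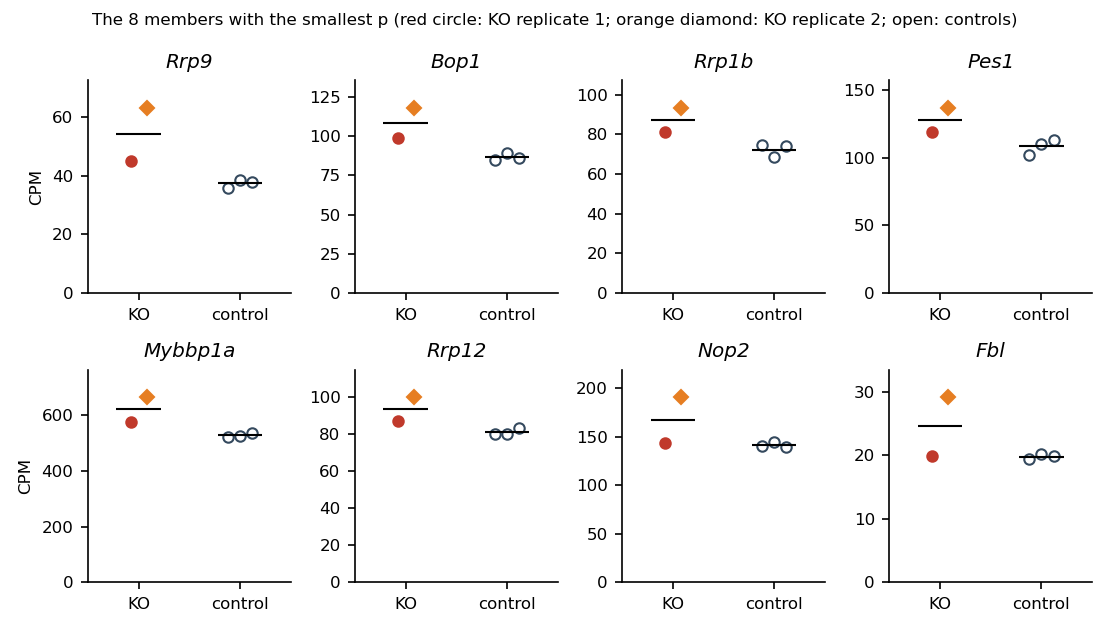
CPM in each library for the 8 genes with the smallest p, with KO on the left and control on the right of each panel and a bar at each group mean. KO replicate 2 is the highest library in all 8 panels, while KO replicate 1 lies above all controls for Rrp9, Bop1, Rrp1b, Pes1, Mybbp1a and Rrp12 and within their range for Nop2 and Fbl.

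MYC, a known driver of ribosome production, binds the E-box CACGTG, and the promoters of the members were searched for it. RefSeq promoters on GRCm38.p6, 250 bases before to 50 bases after a gene's start, were found for 27 of the 33 members. Of these, 7 held CACGTG, which reads the same on both strands: Mybbp1a, Nop2, Pes1, Rrn3, Tsr1, Utp20 and Wdr43. That was 25.9%, against 10.5% of 9265 tested genes with a promoter and 7.24% of all 27025 genes, counting the first listed start of each. The GC box GGGCGG, searched on both strands, was in 21 of 27 member promoters and in 65.4% of those of tested genes. CCAAT, on both strands, was in 10 of 27 and in 39.2%. The motifs of ZBTB33 and NRF1, searched on both strands, were in 0 of 27, against 1.13% and 2.21% of tested genes. The promoters below belong to the 4 members with the smallest p among those with a single listed start, with each E-box in capitals.
Rrp9, chr9:106477059-106477358, plus strand: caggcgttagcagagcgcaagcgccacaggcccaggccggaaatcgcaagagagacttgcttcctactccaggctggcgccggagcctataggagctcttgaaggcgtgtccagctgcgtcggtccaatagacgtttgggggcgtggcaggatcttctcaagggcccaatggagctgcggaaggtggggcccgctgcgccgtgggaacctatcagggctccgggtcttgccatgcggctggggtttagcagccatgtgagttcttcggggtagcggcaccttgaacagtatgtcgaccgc
Pes1, chr11:3963725-3964024, plus strand: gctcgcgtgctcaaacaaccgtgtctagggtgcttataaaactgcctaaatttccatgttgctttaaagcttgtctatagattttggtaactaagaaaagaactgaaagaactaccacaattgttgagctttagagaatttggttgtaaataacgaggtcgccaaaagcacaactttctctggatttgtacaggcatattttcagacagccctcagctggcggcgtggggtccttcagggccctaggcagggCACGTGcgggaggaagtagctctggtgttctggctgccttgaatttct
Mybbp1a, chr11:72441077-72441376, plus strand: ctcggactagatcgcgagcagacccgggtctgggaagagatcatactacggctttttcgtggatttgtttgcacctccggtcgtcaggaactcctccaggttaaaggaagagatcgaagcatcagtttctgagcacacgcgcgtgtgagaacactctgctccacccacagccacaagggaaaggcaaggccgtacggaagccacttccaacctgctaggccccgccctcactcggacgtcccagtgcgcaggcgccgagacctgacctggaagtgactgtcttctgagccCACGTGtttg
Nop2, chr6:125131633-125131932, plus strand: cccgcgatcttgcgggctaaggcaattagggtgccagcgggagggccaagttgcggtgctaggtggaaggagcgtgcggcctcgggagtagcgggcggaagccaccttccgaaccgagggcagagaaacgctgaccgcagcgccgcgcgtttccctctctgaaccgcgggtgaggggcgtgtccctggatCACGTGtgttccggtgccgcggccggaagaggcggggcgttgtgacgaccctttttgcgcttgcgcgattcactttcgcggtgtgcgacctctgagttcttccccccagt
The Rrp9 window held no E-box, and the other 3 held 1 each. The RefSeq start of Rrp9 lies downstream of the start of the gene in GENCODE. The E-box begins at base 3 of the transcript in Pes1, at base 41 in Mybbp1a and 60 bases before the start in Nop2. The 7 members with an E-box had log2 fold changes of 0.24 (Pes1), 0.24 (Nop2), 0.23 (Mybbp1a), 0.15 (Wdr43), 0.09 (Utp20), 0.05 (Rrn3) and 0.01 (Tsr1). None of the 7 passed the edgeR, DESeq2 or limma-voom test. Pes1 and Mybbp1a, 2 of the 7, were higher at an unadjusted edgeR p below 0.05, against 6 of all 33 members and 14.3% of all genes tested. A link with the motif was not tested. A match is a description of the letters and not of binding.

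Several members carry snoRNA genes within their own bounds, an arrangement known for genes of ribosome production. In GENCODE M21, 7 of the 33 had at least 1 snoRNA or scaRNA gene within them on the same strand, 21 in all, against 2.59% of all tested genes. They were Nop56 with 5, Nop58 with 4, Ncl, Gnl3 and Wdr43 with 3 each, Tsr1 with 2 and Dkc1 with 1. None of these 7 host genes passed the edgeR test, none had an unadjusted p below 0.05, and DESeq2 and limma-voom called 0 of them.

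Counts of some members are less certain than their depth implies. Of all 50-base stretches of their transcripts, 29.1% of those of Tsr1, 24.3% of Npm1, 23.3% of Pes1, 19.7% of Fbl, 18.6% of Nop56 and 11.01% of Utp14a also occur in another annotated gene, on either strand. For Npm1, Nop56 and Pes1 the gene sharing the most was a processed pseudogene. For Tsr1 it was Srr, which overlaps its exons on the other strand by 1240 bp. The sources used here do not say whether the counting used strand or kept reads with several matches. For Rrp9 the share was 0.456% and for Bop1 0.033%.

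Further genes of ribosome production, taken from 7 lists of 148 genes, were mostly higher in KO replicate 2 as well. The table held 146 of them and all 146 were tested: 3 rose, 0 fell and 143 did not pass in edgeR, beside the 5.15% called higher among all genes tested. DESeq2 called 4 higher and limma-voom 3, and both called 0 lower. At an unadjusted p below 0.05, 23 were higher, a share near the 14.3% of all genes tested, and 1 was lower, against 9.48%. A log2 fold change above 0 was found for 123 of the 146, against 52.5%, with a median of 0.11. KO replicate 2 was above KO replicate 1 in 127 of 146, against 50.6%.

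In the small subunit processome, Rrp36 and Utp23 rose, 2 of 36, a share near the 5.15% called higher among all genes tested. Rrp36, whose yeast counterpart takes part in early cuts of the precursor, was at 24.6 and 30.4 CPM in KO replicates 1 and 2, against 18.9, 21.1 and 18.4 CPM in control replicates 1, 2 and 3, with a log2 difference of 0.50 ± 0.12 (SE; edgeR adjusted p = 0.036). Utp23, of which the yeast counterpart helps release a snoRNA from the precursor, was at 30.1 and 34.0 CPM in KO libraries, against 25.5, 24.2 and 24.0 CPM in controls, with a log2 difference of 0.39 ± 0.09 (SE; edgeR adjusted p = 0.037). In all 36 genes of this list KO replicate 2 exceeded KO replicate 1, against 50.6% of all genes tested. Among 52 further genes of large subunit assembly, Ddx24 rose. It encodes an RNA helicase and had nearly equal levels in both KO libraries, 212 and 211 CPM, against 158, 173 and 172 CPM in controls, with a log2 difference of 0.34 ± 0.07 (SE; edgeR adjusted p = 0.023). The list had 12 of 52 genes higher at an unadjusted p below 0.05, against 14.3% of all genes tested, and 50 of 52 with a log2 fold change above 0, against 52.5%. Rrp36 and Utp23 missed the threshold without each control or KO replicate 2 (edgeR adjusted p up to 0.16 and 0.15), Utp23 also with DESeq2, the replicate block and no filter and Rrp36 with no filter (up to 0.13), and Ddx24 without each control (up to 0.11), with the replicate block (0.064) and with no filter (0.066).

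The other lists had 0 genes past the test by edgeR, DESeq2 or limma-voom. Of 16 other polymerase I subunits and ribosomal DNA transcription factors 1 was higher at an unadjusted edgeR p below 0.05, against 14.3% of all genes tested. The median log2 fold change was 0.14, with Polr2e, a subunit shared by the polymerases, at 0.10. The 12 genes of snoRNP assembly had a median of 0.16. Of the 12, 1, Snu13, was lower at an unadjusted p below 0.05, against 9.48% of all genes tested. Nop10, of the H/ACA particle, was at -0.04. The 10 tested genes of late 40S maturation had a median of 0.06, with 0 at an unadjusted p below 0.05, and Ltv1 at 0.03. The nuclear exosome, which trims and degrades precursor RNA, had a median of 0.02 over 14 genes, with Exosc10 at 0.03. Of the 14, 2 were higher at an unadjusted p below 0.05, a share near the 14.3% of all genes tested. Chromatin factors of the ribosomal DNA were the 1 list with a median below 0, at -0.04 over 6 genes, with 0 at an unadjusted p below 0.05, and Baz1b at -0.13.

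**Figure D5:**
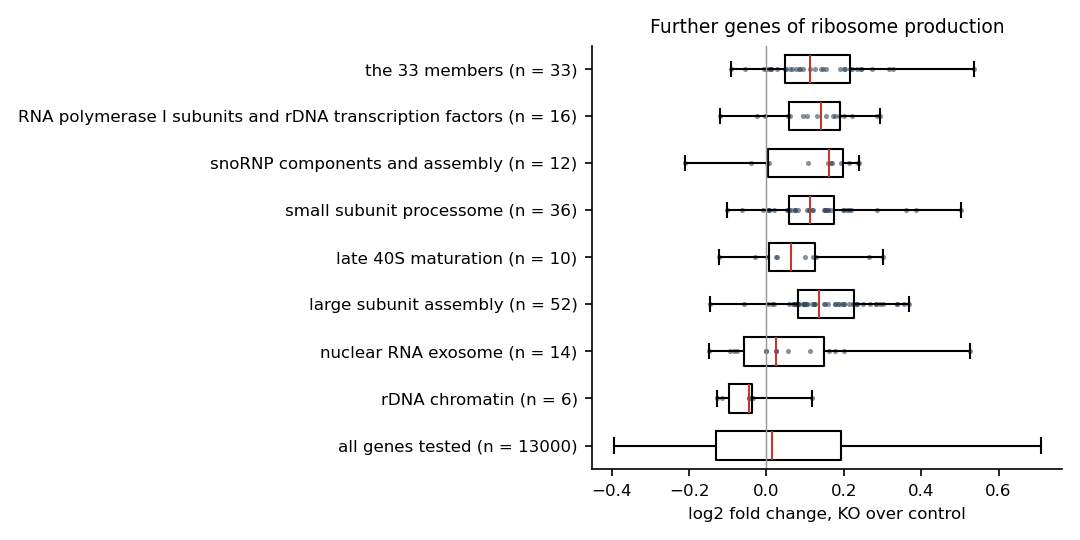
Log2 fold change of KO over control for the 33 members, the 7 further lists and all 13000 genes tested. Boxes span the quartiles, the red line is the median, whiskers reach the lowest and highest gene (for all genes tested, the middle 90%), and points are genes; the medians lie between -0.04 and 0.16, and that of all genes tested at 0.01.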

How the data were processed

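Poly(A) RNA was selected on beads, made into Ion Torrent libraries and sequenced on an Ion Proton, per the labels' protocols. The authors deposited a table of read counts per gene, unnormalised; the submitters' processing notes name cutadapt, STAR, Bowtie, HTSeq and mm10, without versions or settings. Gene IDs were matched to GENCODE M21, which gave a symbol to 37607 of 39179, and exon lengths came from it.

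All 5 libraries entered 1 fit in edgeR 4.0.16 (R 4.3.3), with TMM scaling, its default filter on low counts (13000 genes kept), group as the only term and the quasi-likelihood test with Benjamini-Hochberg adjustment over all genes tested, at a threshold of 0.05. Each SE given is the size of the log2 fold change divided by the square root of that test's F statistic. The fit has 3 residual degrees of freedom. It was also run on counts simulated with its own estimated spread, and the outcome is not given here. That run had the same spread in both groups, so it does not bear on the gap between the KO libraries. RLE scaling, DESeq2 1.42.0, limma-voom (limma 3.58.1), other filters, a replicate block, leaving out the globin genes and leaving out each library were tried as alternatives. Values per library are given for every member past the threshold and for the 8 smallest p, together with the most abundant per kilobase. In each further list up to 3 genes past the threshold are named, or the most abundant where none passed; the other members given library by library, such as Polr1c or Utp20, and C1qc, Tfrc, Itga2b and Snu13 were chosen after their values were seen. The members, lists and tests were chosen with earlier results of these data known. Riok2 and Exosc6 of the further lists were not analysed here. Counts of 50-base stretches and snoRNA hosts use the GENCODE transcripts, and promoters are RefSeq's on GRCm38.p6.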

Additional observations from a re-analysis of the deposited data

How the results depend on the processing

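Over all genes tested 907 were called; 288 were with no filter on low counts, and leaving out 1 library gave 241 (without control replicate 2) to 2956 (without KO replicate 1, where the lone KO library is assumed to vary like the controls). Of the members 1 was called, but 0 with limma-voom and 0 with no filter, and leaving out 1 library gave 0 (without any control or KO replicate 2) to 12 (without KO replicate 1, when 12.7% of all genes tested were called higher). The cause was not tested. The members' median log2 fold change of 0.11 ran from -0.0100 without KO replicate 2 to 0.17 without KO replicate 1, and was 0.09 with the replicate block, which called 1 member, Rrp9, and 873 genes in all. The replicate numbers were not shown to pair the libraries: deviations from the group means correlated at 0.015 for number 1 and 0.068 for number 2.

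Of 396 values of single members under the alternatives, 348 kept direction and call, 11 gained a call, 6 lost one and 31 changed sign; of 274 values of other named genes the numbers were 215, 5, 38 and 16. Ncl turned to -0.0047 with RLE scaling, -0.0047 with DESeq2, -0.0021 with limma-voom, -0.0015 with the 5 CPM filter, -0.032 with the block and -0.011 without globin genes. Without globin genes Nop58 turned to -0.0060 and Tsr1 to -0.0048, and Ltv1 to -0.041 with the block. With 1 library left out, log2 fold changes that turned ranged from -0.036 to 0.059 for Polr1b, -0.17 to 0.14 for Ncl, -0.10 to 0.18 for Npm1, -0.0100 to 0.17 for Nolc1, -0.024 to 0.21 for Ddx21, -0.067 to 0.19 for Gnl3, -0.11 to 0.073 for Nop56, -0.10 to 0.087 for Nop58, -0.12 to 0.41 for Nhp2, -0.028 to 0.098 for Gar1, -0.0025 to 0.15 for Utp20, -0.072 to 0.033 for Utp14a, -0.028 to 0.15 for Wdr75, -0.14 to 0.12 for Tsr1, -0.035 to 0.41 for Nop16, -0.0042 to 0.38 for Rrs1 and -0.025 to 0.12 for Sbds. Among other genes they ranged from -0.17 to 0.060 for Nop10, -0.044 to 0.091 for Ltv1, -0.018 to 0.043 for Exosc10, -0.52 to 0.20 for Hba-a1, -0.20 to 0.17 for Alb, -0.087 to 0.16 for Mpo, -0.52 to 0.11 for Gp9 and -0.29 to 0.29 for Cd79a.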
